A study of Rattus norvegicus with 9 samples.

Results

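Cortical interneuron markers and neuropeptides were examined in the frontal cortex of male Wistar rats. They are the 10 genes Pvalb, Sst, Vip, Npy, Cck, Calb1, Calb2, Reln, Tac1 and Lhx6, which were taken by symbol from the 37209 genes of the deposited count table. All 10 have a row in the table, and 9 of them had enough reads to be tested. Total RNA depleted of rRNA had been sequenced from 9 rats aged 14 weeks, with 3 rats in each of the groups Control, MS and MS+EA. Rats of the MS and MS+EA groups were parted from their mothers for 4 h daily from postnatal day (PND) 1 to PND 21, and Control litters were left with theirs. MS+EA rats then received electroacupuncture at the points GV20 (Baihui) and GV29 (Yintang) every other day between PND 61 and PND 81, under isoflurane. The Control and MS rats were anaesthetised in the same way without needles, and a sham electroacupuncture group was not analysed here. Nothing in the sources used here says that the rats of a group came from separate litters, so p-values measure the spread between these rats.

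Interneurons are the local inhibitory neurons of the cortex and use GABA as their transmitter. Parvalbumin (Pvalb), somatostatin (Sst) and vasoactive intestinal peptide (Vip) mark their main classes, of which the first and second arise in the medial ganglionic eminence of the embryo, where the transcription factor Lhx6 is switched on. Neuropeptides are cut from larger precursors, packed into dense core vesicles and released beside GABA or glutamate, and several of these genes are also used outside interneurons, Cck and Calb1 by many pyramidal cells. In a piece of tissue, fewer cells of a type and less RNA per cell cannot be told apart.

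Levels are given in CPM, the count of a gene scaled to the library size after TMM normalisation. Longer transcripts collect more reads and no transcript lengths were used, so levels were compared between rats and not between genes. The total count per rat was 16106381 to 19007907 in the Control and MS groups and 12479905 to 14913736 in the MS+EA group. A gene was called changed at a Benjamini-Hochberg adjusted p under 0.05 in edgeR's quasi-likelihood test together with a fold change over 1.5, with 16837 genes tested. For single values, the exact permutation test (two-sided) of 3 rats against 3 cannot give a p below 0.1.

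All 16 markers of excitatory cortical neurons had enough reads to be tested. Their sum was 4356 to 4474 CPM in MS+EA rats, below all Control rats (4856 to 5672 CPM) and all MS rats (4966 to 5059 CPM). Between MS+EA and Control rats, 8 of the 16 had a log2 fold change below 0 and 8 above. Besides this, 3 libraries stood apart in markers of neighbouring tissue. In the MS+EA rat C3, the 7 olfactory bulb markers summed to 79.8 CPM, and in the MS+EA rat C16 to 45.2 CPM, against 19.7 to 37.1 CPM in the other 7 rats. Eomes, which marks the projection neurons of the bulb, had 65 reads in C3, 22 in C16 and at most 8 elsewhere, with 0 in C10. Rat C3 also had the highest sum of oligodendrocyte markers, 4176 CPM against 1830 to 3241 CPM elsewhere, and the lowest sum of pan-neuronal genes, 5597 CPM against 6140 to 7067 CPM. The MS rat B4 had 258 reads of Oxt and 503 of Avp, hypothalamic peptides with at most 25 and 29 reads in any other rat. The sum of 6 endothelial markers was 188 to 213 CPM in Control rats, 247 to 294 CPM in MS rats and 220 to 254 CPM in MS+EA rats, and that of the hemoglobin list was also higher in every MS and MS+EA rat than in every Control rat. The part of these differences in the results that follow was not tested, and where leaving out C3, C16 or B4 moved a value by more than 1.5 times it is given without them.

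None of the 9 tested interneuron genes was called changed in any comparison. Between MS and Control rats, 0 of 9 passed the thresholds beside 0.0238% of all tested genes. In the comparison of MS+EA with MS rats, 0 of 9 passed beside 0.0178%, and between MS+EA and Control rats 0 of 9 passed beside 1.37%. The smallest edgeR adjusted p among the 9 genes was 0.462, 0.322 and 0.0897 in the 3 comparisons, the last for Cck. DESeq2 and limma-trend also called 0 of them in each comparison. An edgeR p under 0.05 before adjustment was reached by 1 gene between MS and Control rats (Reln), by 1 between MS+EA and MS rats (Pvalb) and by 2 between MS+EA and Control rats (Cck and Reln). All of these were lower in the first group named. Among all tested genes 10.6%, 12.4% and 22.5% reached such a p in either direction, and 3.55%, 6.42% and 10.6% reached it with a lower level. The median log2 fold change of the 9 genes was -0.06, -0.08 and -0.17 in the same order, where that of all genes was -0.0014, 0.00059 and 0.0055. The comparisons share groups, so their values are not independent of each other.

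**Figure D1:**
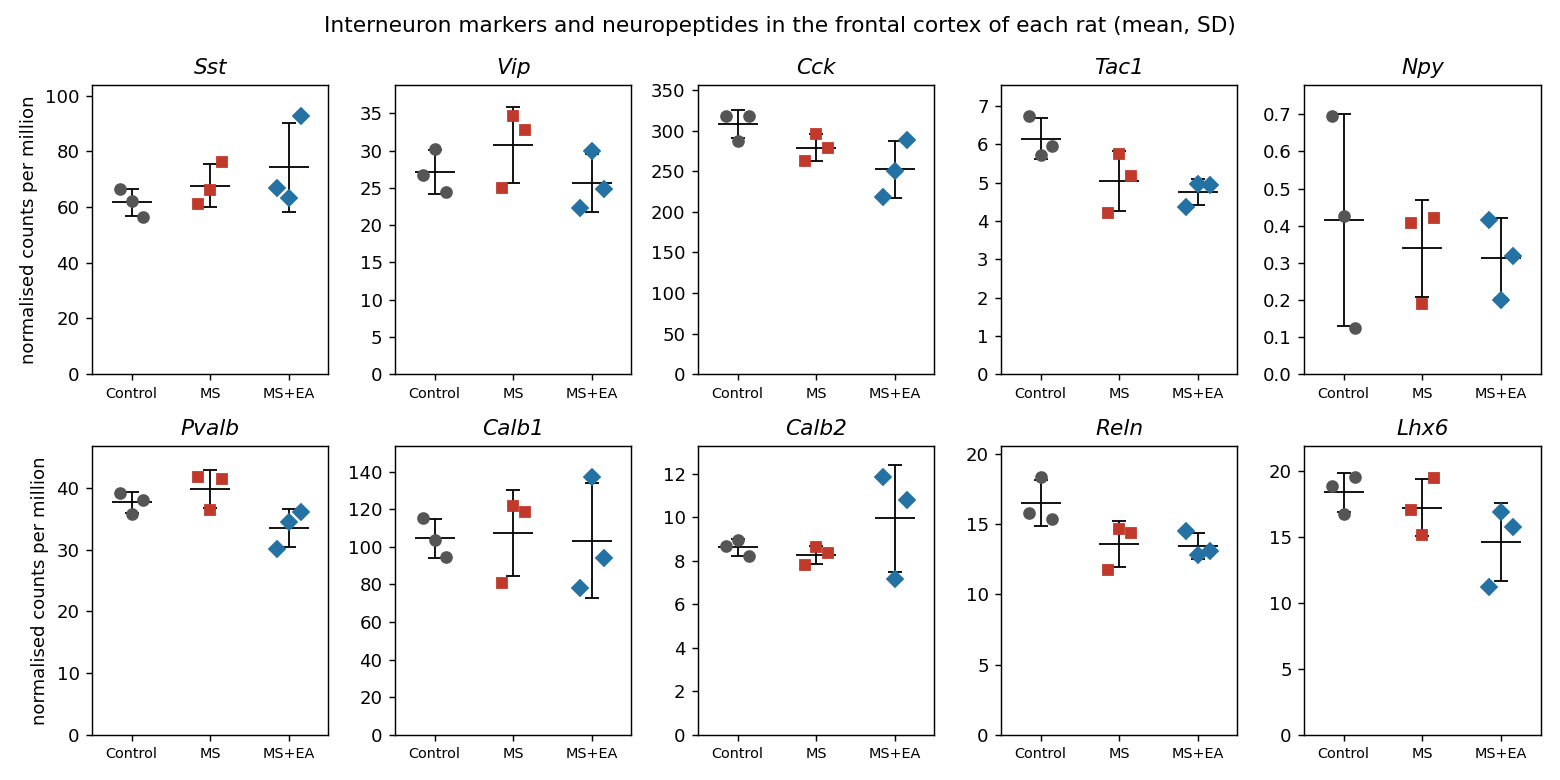
Level in CPM (vertical axes, from 0) of the 10 genes in each rat of the Control, MS and MS+EA groups (horizontal axes). Points are rats, the wide bar is the mean and the whiskers are 1 SD of 3 rats. The groups overlap in most panels, Reln lies highest in the Control rats, and Npy stays below 0.7 CPM in every rat.

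**Figure D2:**
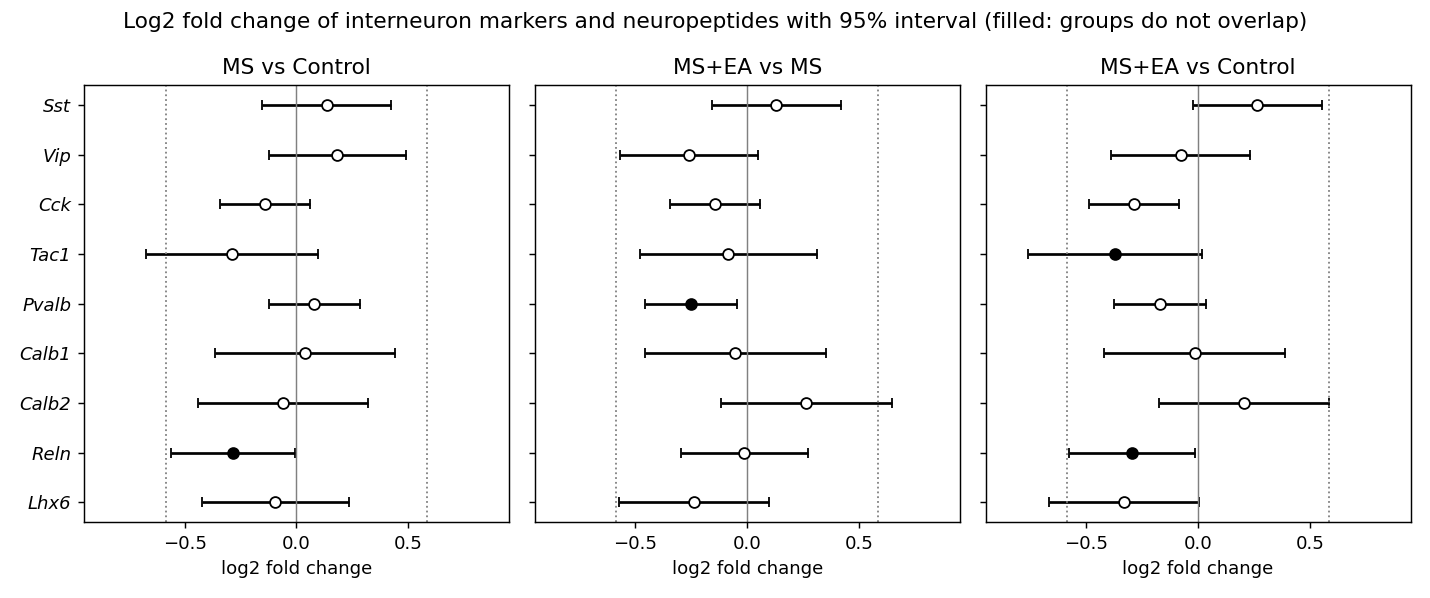
Log2 fold change (horizontal axes) of the 9 tested genes in the 3 comparisons with its 95% interval from the edgeR fit. Filled points are genes whose 2 groups do not overlap, and dotted lines mark a fold of 1.5. No gene passed the thresholds, and most of the intervals include 0.

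Somatostatin and VIP precursors are both transcribed from promoters long used to study the response to cyclic AMP, and their start regions are shown because they hold the cyclic AMP response element. RefSeq promoter windows (build GRCr8, 250 bases before to 50 bases after the annotated start) were found for 7 of the 10 genes, and both strands were searched for the full palindrome TGACGTCA and for its first part TGACGT, which every full palindrome contains. The full palindrome was present in 1 of the 7 windows (Sst) and in 1.83% of all 33469 promoters, and the shorter motif in 2 of the 7 (Sst and Vip) and in 7.94% of all. Capitals mark the motif, which starts at base 3 after the annotated start in Sst, at chr11:90461508-90461595 on the plus strand, and 97 bases before it in Vip, at chr1:44470343-44470428 on the plus strand. A match is a description of the letters and was not tested for any use in these rats. Whether transcription begins at the annotated start was not tested either, so the positions hold for the annotation only.
Sst: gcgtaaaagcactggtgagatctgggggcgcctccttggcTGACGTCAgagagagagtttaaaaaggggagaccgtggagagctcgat
Vip: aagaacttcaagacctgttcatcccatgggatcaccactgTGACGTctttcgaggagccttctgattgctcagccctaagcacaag

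Sst, whose peptide inhibits release from its target cells, had the highest level of all rats in C16. Its level was 66.4, 62.1 and 56.5 CPM in the Control rats A1, A2 and A6, 61.1 CPM in the MS rat B3, 66.2 CPM in B4 and 76.1 CPM in B6, and 66.8, 63.3 and 92.8 CPM in the MS+EA rats C3, C10 and C16. The groups overlapped in all 3 comparisons. The log2 fold change between MS+EA and Control rats was 0.27 (SE 0.13, edgeR adjusted p = 0.262), with a 95% interval of -0.02 to 0.55. Without C16 it was 0.07. That between MS+EA and MS rats was 0.13, with -0.06 without C16 and 0.21 without C3. Between MS and Control rats it was 0.14 (SE 0.13, edgeR adjusted p = 0.764).

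Vip, the peptide of interneurons that act mostly on other interneurons, was highest in 2 of the 3 MS rats, without passing the test. It stood at 26.8, 30.2 and 24.4 CPM in Control rats, at 25.0, 34.6 and 32.7 CPM in MS rats, and at 22.3, 29.9 and 24.9 CPM in MS+EA rats. B4 and B6 stood above all Control and MS+EA rats, B3 did not, and the groups overlapped in each comparison. MS rats differed from Control rats by 0.18 on the log2 scale (SE 0.14, edgeR adjusted p = 0.686), and MS+EA rats from MS rats by -0.26 (SE 0.14, edgeR adjusted p = 0.474). Without B4 these values were 0.09 and -0.16, without B3 they were 0.31 and -0.39, and the second was -0.16 without C3. MS+EA and Control rats differed in Vip by -0.08 on the log2 scale, with a 95% interval of -0.39 to 0.23, and without C3 it was 0.02.

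Cck encodes cholecystokinin, a peptide of basket interneurons and of many pyramidal cells, and its difference between MS+EA and Control rats had the smallest p of the set. Its level was 318, 288 and 318 CPM in Control rats, 262, 296 and 278 CPM in MS rats and 218, 250 and 288 CPM in MS+EA rats. The means were 308 ± 17.4, 279 ± 16.7 and 252 ± 35.1 CPM (SD, n = 3 each). The highest MS+EA rat, C16 with 288.2 CPM, stood just above the lowest Control rat, A2 with 287.6 CPM, so the groups overlapped. The log2 fold change between MS+EA and Control rats was -0.29 (SE 0.09), with a 95% interval of -0.49 to -0.09, an edgeR p of 0.00895 and an edgeR adjusted p of 0.0897. Without C3, the rat with the lowest level, it was -0.19 (edgeR adjusted p = 0.215), and without C16 it was -0.39 (edgeR adjusted p = 0.0434), still under a fold of 1.5. MS rats differed from Control rats by -0.14 on the log2 scale (edgeR adjusted p = 0.617) and MS+EA rats from MS rats by -0.15 (edgeR adjusted p = 0.548). This last value was -0.04 without C3, -0.09 without B4 and -0.25 without C16.

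Tac1, the precursor of substance P, had its 3 highest levels in rats outside the MS+EA group. The Control rats had 6.74, 5.73 and 5.97 CPM, the MS rats 4.20, 5.75 and 5.17 CPM, and the MS+EA rats 4.37, 4.96 and 4.93 CPM. Every MS+EA rat was below every Control rat, a separation shown by 2 of the 9 genes (Tac1 and Reln) and by 25.9% of all tested genes in that comparison. For MS+EA against Control rats the log2 fold change of Tac1 was -0.37 (SE 0.18, edgeR adjusted p = 0.243), with a 95% interval of -0.76 to 0.02. Leaving out any 1 of the 9 rats gave values from -0.42 to -0.30. Between MS and Control rats it was -0.29 (SE 0.18, edgeR adjusted p = 0.59), and between MS+EA and MS rats -0.08 (SE 0.18, edgeR adjusted p = 0.887), a value that was -0.02 without C3 and 0.03 without B4.

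Npy, the precursor of neuropeptide Y and a marker of several interneuron classes, had too few counted reads to be tested. It had 13, 7 and 2 reads in Control rats, 7, 3 and 7 in MS rats and 6, 3 and 4 in MS+EA rats, 52 in all. Its level lay between 0.12 and 0.70 CPM, where 3 reads, taken here as the detection floor, stand for 0.161 to 0.238 CPM depending on the rat. In A6, B4 and C10 the count did not exceed that floor. The count table does not tell a low level of Npy RNA from reads that were not assigned to the gene, and this was not tested. In a fit of every gene with a read, its log2 fold change between MS and Control rats was -0.31. The 95% interval of -1.74 to 1.11 was too wide to tell whether or in which direction its level changed. The receptor gene Npy1r stood at 36.0 ± 2.95, 36.1 ± 5.91 and 32.9 ± 6.47 CPM (SD, n = 3 each) in Control, MS and MS+EA rats.

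Pvalb, the calcium-binding protein of fast-spiking interneurons, was lower in every MS+EA rat than in every MS rat, without passing the adjusted threshold. Its level was 39.2, 35.8 and 38.1 CPM in Control rats and 41.8, 36.3 and 41.4 CPM in MS rats. In MS+EA rats it was 30.0, 34.4 and 36.1 CPM. The highest MS+EA rat, C16, and the lowest MS rat, B4, stood next to each other. Pvalb was the 1 gene of the 9 with this separation, which was found for 17.9% of all tested genes in this comparison. The log2 fold change between MS+EA and MS rats was -0.25 (SE 0.10), with a 95% interval of -0.46 to -0.04 and an edgeR p of 0.0213, and its edgeR adjusted p was 0.322. Without C3 it was -0.17 (edgeR adjusted p = 0.497). MS+EA rats differed from Control rats by -0.17 on the log2 scale (edgeR adjusted p = 0.318), and by -0.09 without C3. MS rats differed from Control rats by 0.08 (edgeR adjusted p = 0.812), and by 0.14 without B4.

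Calb1, which encodes the calcium buffer calbindin of interneurons and upper-layer pyramidal cells, differed more between rats of a group than between groups. It was at 115, 103 and 94.6 CPM in Control rats, at 81.1, 122 and 119 CPM in MS rats, and at 78.3, 137 and 94.3 CPM in MS+EA rats. The SD of its log2 level within groups was 0.316, above that of 99.1% of the 1852 genes whose mean level was within 1.5-fold of its own, which had a median SD of 0.0955. Its log2 fold change was 0.04, -0.05 and -0.02 between MS and Control, MS+EA and MS, and MS+EA and Control rats. The 95% interval of the second value reached from -0.46 to 0.35, and leaving out single rats turned the direction in each comparison, with values from -0.07 to 0.20, from -0.31 to 0.12 and from -0.28 to 0.15.

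Calb2, the calretinin gene of Vip-class and other interneurons, was highest in the rats C3 and C16. Its level was 8.67, 8.96 and 8.21 CPM in Control rats, 7.81, 8.63 and 8.36 CPM in MS rats and 11.9, 7.17 and 10.8 CPM in MS+EA rats. C3 and C16 stood above all other rats while C10, of the same group, had the lowest level of the 9 rats. C3 and C16 are also the rats with the 2 highest sums of olfactory bulb markers, a region whose local interneurons use calretinin in large numbers, and C10 had one of the 2 lowest sums. Of these sums, Cdhr1 alone made up 57.0 CPM in C3 and 24.5 CPM in C16, and not every marker followed. Th was highest in C16 (3.58 CPM) and below all Control rats in C3 (1.46 CPM). Doc2g was highest in C3 and lowest in C16, and Scgn and Gng13 were highest in B6 and A1. The part of bulb tissue in the level of Calb2 was not tested. MS+EA rats differed from MS rats by a log2 fold change of 0.26 (SE 0.18, edgeR adjusted p = 0.564), and 0.12 without C3. Against Control rats it was 0.21 (edgeR adjusted p = 0.529), and 0.06 without C3.

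**Figure D3:**
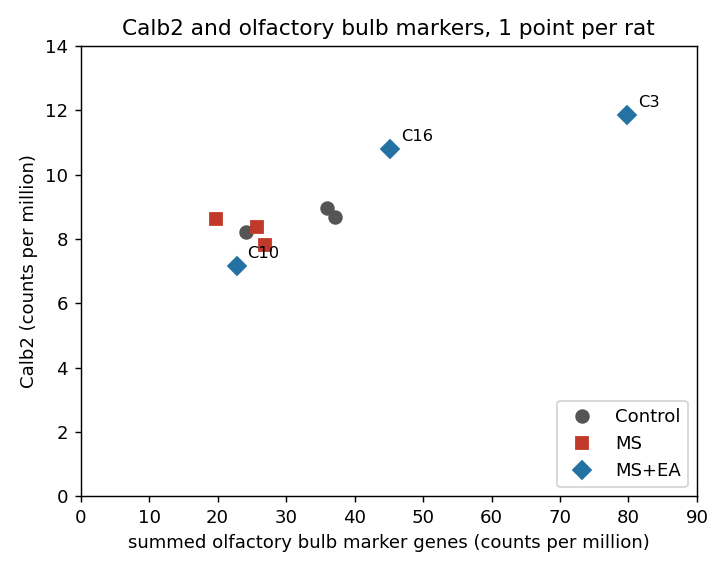
Level of Calb2 in CPM (vertical axis) against the summed level of 7 olfactory bulb markers in CPM (horizontal axis), with a point for each of the 9 rats. The MS+EA rats C3 and C16 are highest on both axes, at 11.9 and 10.8 CPM of Calb2, and C10 has the lowest Calb2 level.

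Reln encodes reelin, a secreted glycoprotein that guides neuronal migration in development and is made by layer 1 and other interneurons in the adult cortex. It was at 15.8, 18.4 and 15.4 CPM in Control rats, at 11.7, 14.6 and 14.4 CPM in MS rats, and at 14.5, 12.8 and 13.0 CPM in MS+EA rats. Every Control rat was above every rat of the other groups. This was the 1 gene of the 9 whose groups did not overlap between MS and Control rats, beside 17.6% of all tested genes. The log2 fold change between MS and Control rats was -0.28 (SE 0.13), with a 95% interval of -0.56 to -0.0043, an edgeR p of 0.047 and an edgeR adjusted p of 0.462, and without B3 it was -0.19. For MS+EA against Control rats it was -0.29 (SE 0.13), with a 95% interval of -0.57 to -0.01 and an edgeR adjusted p of 0.2. MS+EA and MS rats differed by a log2 fold change of -0.01 (edgeR adjusted p = 0.98), with a 95% interval of -0.30 to 0.27, and leaving out single rats gave values from -0.11 to 0.05. The Control rats are the same in the first and second of these comparisons.

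Lhx6, the transcription factor that settles the fate of Pvalb and Sst interneurons, was lowest in C3. It was at 18.8, 16.8 and 19.6 CPM in Control rats, at 17.0, 15.2 and 19.5 CPM in MS rats and at 11.2, 16.9 and 15.7 CPM in MS+EA rats. The groups overlapped in every comparison, in that of MS+EA with Control rats by C10 and A2. The log2 fold change between MS+EA and Control rats was -0.33 (SE 0.15, edgeR adjusted p = 0.226), with a 95% interval of -0.67 to 0.0027, and without C3 it was -0.17. Against MS rats it was -0.24 (SE 0.16, edgeR adjusted p = 0.554), and -0.07 without C3. Between MS and Control rats it was -0.09 (SE 0.15, edgeR adjusted p = 0.872), and -0.013 without B4.

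**Figure D4:**
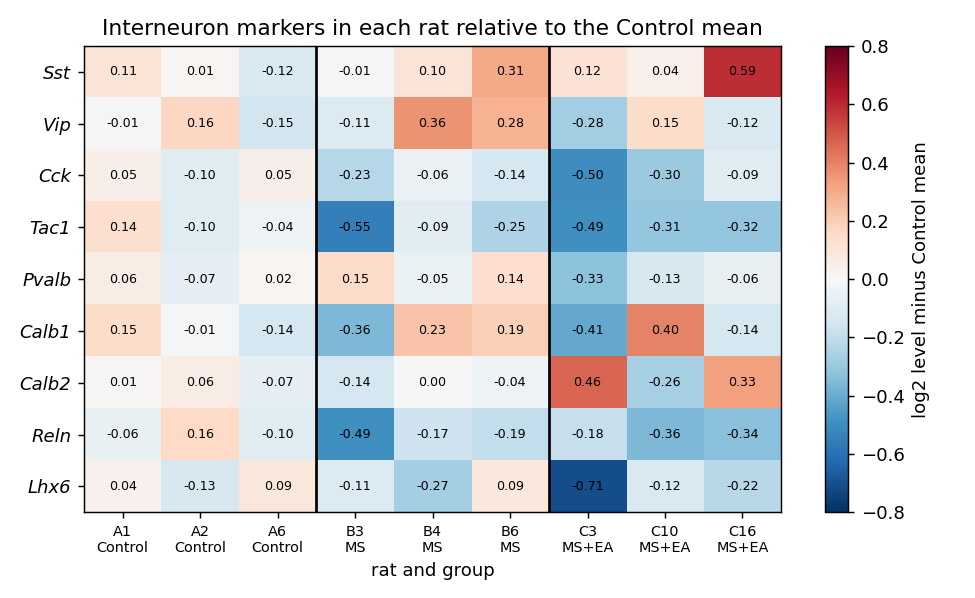
Log2 level of the 9 tested genes in each rat minus the mean of the Control rats, printed in each cell and coloured from blue (lower) to red (higher). Rows are genes and columns are rats by group. The column of C3 is the lowest for Vip, Cck, Pvalb, Calb1 and Lhx6 and the highest for Calb2.

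Single rats stood at the ends of the range for several genes at once. C3, which had the lowest sum of pan-neuronal genes, was the lowest of the 9 rats for 5 of the 9 genes (Vip, Cck, Pvalb, Calb1 and Lhx6) and the highest for 1 (Calb2). B3 was the lowest for 2 (Tac1 and Reln), and A1 the highest for 2 (Cck and Tac1). The highest rat exceeded the lowest by a ratio of 1.39 for Pvalb, the smallest among the 9 genes, to 1.75 for Calb1, the largest. Against genes of like mean level, the SD within groups of Sst (0.207 on the log2 scale) was above that of 93.7%, that of Vip (0.211) above 87.8% and that of Cck (0.135) above 84.0%. That of Tac1 (0.162) was above only 12.6% and that of Reln (0.142) above 34.0%.

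Each gene was also set against Pvalb as reads per Pvalb read, a denominator chosen after the levels had been seen. This is not a correction for neuronal RNA. Pvalb itself was lower in MS+EA rats, by -0.17 on the log2 scale against Control rats and by -0.25 against MS rats. A ratio can therefore be higher in MS+EA rats without a higher level of the gene. For Sst this ratio was 1.69, 1.74 and 1.49 in Control rats, 1.46, 1.82 and 1.84 in MS rats and 2.22, 1.84 and 2.57 in MS+EA rats. Every MS+EA rat was above every Control rat, with means of 2.21 ± 0.367 against 1.64 ± 0.134 (SD, n = 3 each, exact permutation p = 0.1, two-sided and the smallest possible). Any full separation of 3 rats from 3 gives this p. The log2 difference of the Sst ratio was 0.42, where the log2 fold change of the Sst level was 0.27. In the same comparison the ratios of Cck (7.51 against 8.17) and Tac1 (0.142 against 0.163) were lower in every MS+EA rat (exact permutation p = 0.1 each). Such a separation was found for 3 of the 8 genes, beside 25.0% of all genes set against Pvalb. Between MS and Control rats 1 of 8 was separated, the lower Reln (0.343 ± 0.0613 against 0.440 ± 0.0632, SD, n = 3 each, exact permutation p = 0.1), beside 15.3% of all genes, and between MS+EA and MS rats 0 of 8, beside 30.2%.

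The genes whose pattern over the 9 rats was most like that of each interneuron gene were found by the root mean square difference of their centred log2 levels. The closest to Pvalb were Ubald2 and Arl16, both with a difference of 0.05, where the median over all tested genes was 0.23. The closest to Cck was Pgam1, with a difference of 0.06. Fbl and Zfp511 were closest to Reln (0.06 and 0.07), Abt1 and Psmb6 to Tac1 (0.07 each), Ndufa10l1 and Pgrmc1 to Vip (0.08 each) and LOC103691536 and LOC102549619 to Calb2 (0.07 and 0.09). Lhfp and Paqr9 were closest to Sst (0.09 and 0.10), Nat14 and Amer3 to Lhx6 (0.09 each), and Npy1r and Nwd2 to Calb1 (0.11 each). Among the interneuron genes themselves, the closest pair was Cck and Tac1 with 0.11, followed by Pvalb and Lhx6 and by Cck and Pvalb with 0.13 each. The SD over the 9 rats was 0.14 for Pvalb and 0.17 for Cck on the log2 scale, and genes of small spread lie close to each other by this measure. These distances share the libraries and their depth. They describe the size of the differences between rats as well as their order, and nothing of function.

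Genes of GABA synthesis and vesicular transport were measured beside the markers. Gad1 and Gad2 make GABA and Slc32a1 loads it into vesicles. None of them was called in any comparison. Slc32a1 was at 35.3 ± 1.0 CPM in Control rats, 34.5 ± 2.29 CPM in MS rats and 30.4 ± 0.486 CPM in MS+EA rats (SD, n = 3 each). Each MS+EA rat was below all others. Groups did not overlap for 25.9% of all tested genes between MS+EA and Control rats, and for 17.9% between MS+EA and MS rats. The log2 fold change of Slc32a1 was -0.22 between MS+EA and Control rats (SE 0.08, edgeR adjusted p = 0.144). Between MS+EA and MS rats it was -0.18 (SE 0.08, edgeR adjusted p = 0.394). Gad1, named after its values were seen, was at 229 ± 3.96, 254 ± 41.1 and 249 ± 32.3 CPM in Control, MS and MS+EA rats (SD, n = 3 each), and its groups overlapped.

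Of 20 transcription factors of interneurons and their precursors, 19 were tested and 1 was called, between MS+EA and Control rats, where 1.37% of all tested genes were called. This was Maf, which acts in the Sst and Pvalb lineages and is also used by other cells. It rose between Control and MS+EA rats with a log2 fold change of 0.77 (SE 0.13, edgeR adjusted p = 0.00856). Its level was 28.6, 26.0 and 23.4 CPM in Control rats, 36.0, 50.7 and 38.2 CPM in MS rats and 46.1, 43.0 and 44.2 CPM in MS+EA rats. Every MS rat was above every Control rat as well, with a log2 fold change of 0.68 (SE 0.12, edgeR adjusted p = 0.085), and of 0.51 without B4. Groups did not overlap for 17.6% of all tested genes between MS and Control rats, and for 25.9% between MS+EA and Control rats. The endothelial marker sum was also higher in every MS and MS+EA rat than in every Control rat, and its part in the level of Maf was not tested. Nr2f2, a factor of the caudal ganglionic eminence and of veins, had a log2 fold change of 0.92 between MS+EA and Control rats (edgeR adjusted p = 0.0576) and of 0.68 between MS and Control rats (edgeR adjusted p = 0.36). B4, the rat with reads of hypothalamic peptides, had the highest Nr2f2 level of the MS rats, 15.3 CPM against 8.63 and 6.97 CPM, and without it the latter value was 0.28 (edgeR adjusted p = 0.828). The numbers of factors with log2 fold changes above and below 0 were 8 and 11 between MS and Control rats, 11 and 8 between MS+EA and MS rats, and 9 and 10 between MS+EA and Control rats. Of all tested genes, 50.3%, 49.9% and 49.1% were below 0 in the same order. An edgeR p under 0.05 was reached by 2 factors higher and 1 lower in MS than in Control rats. Between MS+EA and MS rats 0 factors reached it, and between MS+EA and Control rats 2 higher and 0 lower. Such a p was reached by 10.6%, 12.4% and 22.5% of all tested genes in these comparisons.

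Of 26 other genes used to mark interneuron classes, all were tested and none was called. An edgeR p under 0.05 was reached by 3 between MS and Control rats, all higher in MS rats, by 2 higher and 5 lower in MS+EA than in MS rats, and by 1 higher and 2 lower in MS+EA than in Control rats. Among all tested genes, 10.6%, 12.4% and 22.5% reached such a p in these comparisons. With a higher level it was reached by 7.06%, 6.01% and 11.9%, and with a lower level by 3.55%, 6.42% and 10.6%. Log2 fold changes were above and below 0 for 17 and 9 of the 26 genes between MS and Control rats. The numbers were 6 and 20 between MS+EA and MS rats, and 8 and 18 between MS+EA and Control rats. Hapln1, a link protein of the perineuronal nets that surround many Pvalb cells, was at 51.3, 47.9 and 57.4 CPM in Control rats, 55.9, 73.1 and 68.2 CPM in MS rats and 74.2, 76.9 and 78.0 CPM in MS+EA rats. Its log2 fold change between MS+EA and Control rats was 0.55 (SE 0.10, edgeR adjusted p = 0.0131), under the fold threshold, and between MS and Control rats 0.33 (edgeR adjusted p = 0.233). Syt2, a vesicle calcium sensor of Pvalb terminals, had a log2 fold change of 0.59 between MS and Control rats (edgeR adjusted p = 0.283), and of 0.39 without B3. Elfn1, a postsynaptic partner of synapses onto Sst cells, was at 35.4, 29.5 and 34.2 CPM in Control rats. It was at 34.3, 38.0 and 37.6 CPM in MS rats and 24.1, 28.9 and 26.2 CPM in MS+EA rats. Each MS+EA rat was below all others for Elfn1. Groups did not overlap for 17.9% of all tested genes between MS+EA and MS rats, and for 25.9% between MS+EA and Control rats. The log2 fold change of Elfn1 was -0.47 against MS rats (SE 0.10, edgeR adjusted p = 0.184) and -0.32 against Control rats (SE 0.10, edgeR adjusted p = 0.084). Grin3a, an NMDA receptor subunit common in Sst cells, had a log2 fold change of -0.61 between MS+EA and MS rats (SE 0.16, edgeR adjusted p = 0.226).

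**Figure D5:**
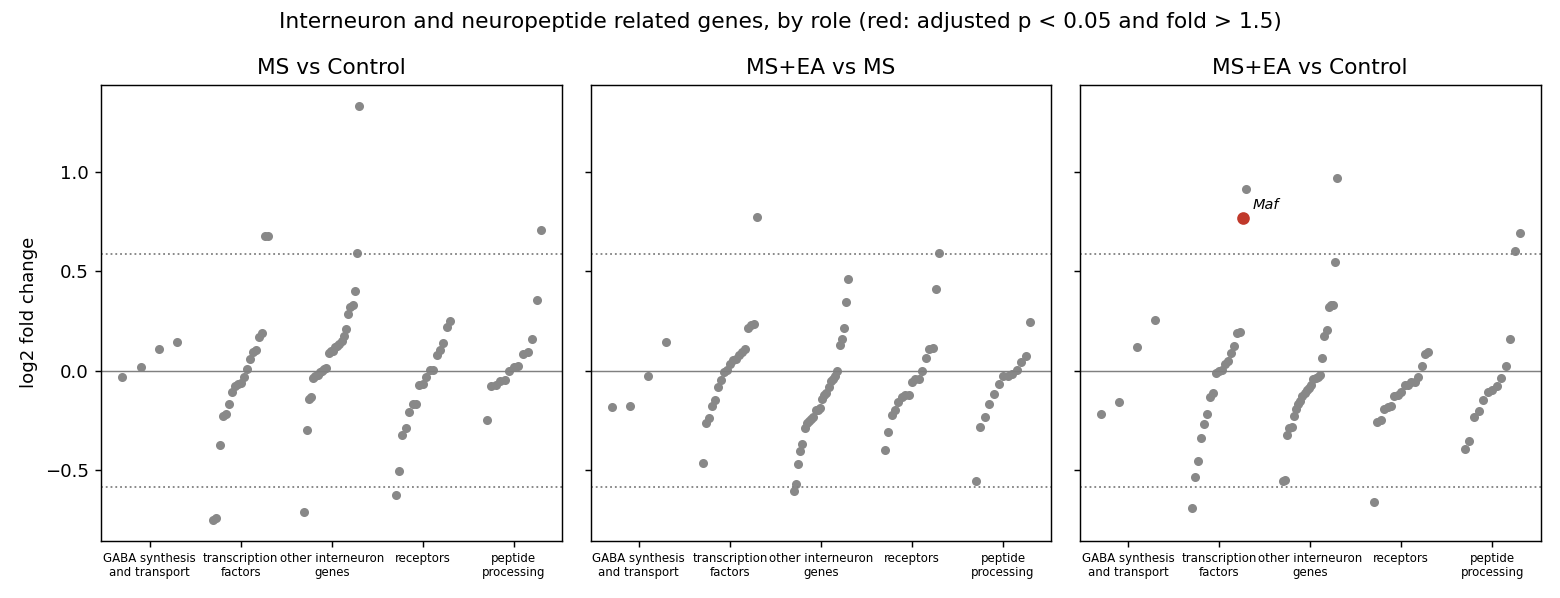
Log2 fold change (vertical axes) of the tested genes of GABA synthesis and transport, interneuron transcription factors, other interneuron genes, receptors and peptide processing (horizontal axes) in the 3 comparisons. Points are genes in order of their value, dotted lines mark a fold of 1.5, and red marks a gene past both thresholds. Maf between MS+EA and Control rats, with a log2 fold change of 0.77, is the 1 red point.

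The receptors of these and related peptides and of reelin, with the adaptor Dab1, were a list of 19 genes. Of these, 17 were tested and none was called. Sstr5 and Cckar had 4 and 9 reads over the 9 rats and were not tested. Log2 fold changes were below 0 for 10 of 17 between MS and Control rats, for 12 between MS+EA and MS rats and for 14 between MS+EA and Control rats, with medians of -0.06, -0.06 and -0.11. Among all tested genes, 50.3%, 49.9% and 49.1% were below 0 in these comparisons. Cckbr, the cholecystokinin receptor of the cortex, was at 41.3, 42.9 and 44.2 CPM in Control rats, 33.4, 31.5 and 40.3 CPM in MS rats and 35.2, 40.9 and 37.6 CPM in MS+EA rats. Each MS rat was below each Control rat, with a log2 fold change of -0.29 (SE 0.10, edgeR adjusted p = 0.314). Groups did not overlap for 17.6% of all tested genes between MS and Control rats. Lrp8, a reelin receptor, had a log2 fold change of 0.22 in the same comparison (edgeR adjusted p = 0.403). In MS+EA against MS rats, Tacr3, the neurokinin B receptor, had -0.40 (edgeR adjusted p = 0.292) and Sstr2, a somatostatin receptor, 0.41 (edgeR adjusted p = 0.379), both on the log2 scale. The value of Sstr2 was 0.20 without C3. In MS+EA against Control rats, Dab1, the adaptor that carries the reelin signal into the cell, had a log2 fold change of -0.66 (SE 0.27, edgeR adjusted p = 0.165) at a low level, 1.71 ± 0.263 against 2.71 ± 0.559 CPM (SD, n = 3 each). Adcyap1r1, the receptor of the VIP relative PACAP, had a log2 fold change of -0.18 in that comparison (edgeR adjusted p = 0.121).

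All 13 genes listed for the making, sorting and breakdown of neuropeptides were tested, and none was called. An edgeR p under 0.05 was reached by 1 higher and 0 lower in MS than in Control rats. It was reached by 0 higher and 2 lower in MS+EA than in MS rats, and by 2 higher and 2 lower in MS+EA than in Control rats. The shares of all tested genes with such a p were 10.6%, 12.4% and 22.5% in the same order. Scg3, a granin that helps to form dense core vesicles, was at 225 ± 2.0 CPM in Control rats, 224 ± 7.5 CPM in MS rats and 191 ± 10.2 CPM in MS+EA rats (SD, n = 3 each). Its log2 fold change was -0.23 between MS+EA and Control rats (SE 0.06, edgeR adjusted p = 0.0479), past the adjusted threshold and under the fold threshold. In that comparison 910 of the 16837 tested genes passed the adjusted threshold. Between MS+EA and MS rats the value of Scg3 was -0.23 (SE 0.06, edgeR adjusted p = 0.226). Vgf, a precursor cut into several peptides, had a log2 fold change of -0.56 between MS+EA and MS rats (edgeR adjusted p = 0.245). The membrane peptidase Dpp4 had a log2 fold change of 0.71 between MS and Control rats (edgeR adjusted p = 0.244), and the peptidase Mme one of 0.60 between MS+EA and Control rats (edgeR adjusted p = 0.0799). Without B4 the value of Dpp4 was 0.49, and without C10 that of Mme was 0.31 (edgeR adjusted p = 0.258).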

How the data were processed

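Total RNA of the frontal cortex of 9 male rats was depleted of rRNA and sequenced on a HiSeq X instrument by the authors. Per the labels, reads were mapped to Rnor_6.0 with HISAT2 2.0.4. The deposited values are whole-number counts of reads per gene without normalization. The counting program, its use of strand and its treatment of reads with several locations are not given in the sources used here, so reads of overlapping or antisense genes could not be told apart. Groups were taken from the labels, and 0 columns belonged to other samples. The counts were analysed with edgeR 4.0.16 in R 4.3.3 (TMM, filterByExpr with a minimum count of 10, a mean for each group, quasi-likelihood F test over all 9 rats, Benjamini-Hochberg adjustment over 16837 genes, adjusted p under 0.05 and fold over 1.5). The test differs from the EBSeq program named by the study, with the same thresholds. The biological coefficient of variation was 12.7%. Each standard error is the absolute log2 fold change over the root of F, and CPM values are relative to the TMM-normalised library size of the tested genes.

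The interneuron genes, the other gene lists and the rules for naming genes were chosen with earlier results of these data known. All 10 interneuron genes were named. From the lists of GABA genes, transcription factors, other interneuron genes, receptors and peptide processing genes, those past both thresholds were named and, in each comparison, the 2 with the smallest p among those with an unadjusted p under 0.05. Of the genes these rules name, 2 are not reported here. Ratios to Pvalb were compared by exact permutation tests. Alternatives were DESeq2 1.42.0, limma-trend (limma 3.58.1), other normalisations and filters, a robust fit, fits of 6 rats and the omission of each rat. Code was tested on simulated data. Promoters were read from RefSeq windows (GRCr8) with Python 3.11.15 and pandas 2.3.3, and plots were drawn with matplotlib 3.10.9.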

Additional observations from a re-analysis of the deposited data

How the results depend on the processing

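None of the interneuron genes was called in any alternative run, and 484 of 513 recomputed log2 fold changes kept their direction. An edgeR or DESeq2 adjusted p under 0.05 was reached for Cck between MS+EA and Control rats with every gene with a read tested (-0.29, adjusted p = 0.0317), with DESeq2 (-0.29, adjusted p = 0.0377) and without C16 (-0.39, adjusted p = 0.0434), each under a fold of 1.5; over its alternatives this p ranged up to 0.251. Directions turned for values near 0. Relative to pan-neuronal genes, which moved the median of all genes between MS and Control rats by -0.10, Pvalb (-0.022) and Calb1 (-0.062) turned there, and Calb1 (0.0089) and Reln (0.079) between MS+EA and MS rats. Relative to GABA neuron genes, a setting added after seeing the data, Calb1 was -0.039, 0.046 and 0.0066 in the 3 comparisons, and Tac1 (0.0023) and Reln (0.074) turned between MS+EA and MS rats. With total counts, Reln was 0.031 between MS+EA and MS rats and Calb1 0.0088 between MS+EA and Control rats. With each rat left out, Calb1 ranged from -0.067 to 0.20, from -0.31 to 0.12 and from -0.28 to 0.15 in the 3 comparisons, Sst (-0.060 to 0.23), Tac1 (-0.20 to 0.028) and Reln (-0.11 to 0.051) turned between MS+EA and MS rats, and Vip (-0.20 to 0.021) between MS+EA and Control rats. Of 456 recomputed values of the genes named by rule from the other lists, 0 turned direction and 12 passed both thresholds where the reported value did not. Among these were Maf between MS and Control rats in 3 alternatives and Nr2f2 between MS+EA and Control rats in 5. Maf between MS+EA and Control rats passed in all 19 (0.71 to 0.84, adjusted p at most 0.0423). The count of all genes called between MS and Control rats (4) was 7 relative to GABA neuron genes and with a robust fit, 207 with every gene with a read, 69 with DESeq2, 11 with the 6 rats compared, and 2 to 22 with a rat left out (22 without B3, 10 without C10, 9 without C3, 2 without A1 or A2). Between MS+EA and MS rats (3) it was 72 with every gene with a read, 5 (robust), 42 (DESeq2), 1 (6 rats), and 1 to 4 with a rat left out (1 without A1 or C16); with at least 10 counts in every rat edgeR called 0, with 1951 genes at an unadjusted p under 0.05. Between MS+EA and Control rats (230) it was 96 relative to pan-neuronal genes, 469 with every gene with a read, 910 without a fold threshold, and 71 to 304 with a rat left out (71 without A1, 121 without C10). The cause was not tested for any of these. No paired analysis was possible because the groups share fewer than 2 replicate numbers and hold different animals. A comparison of levels between genes per transcript length was not run.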
